A study of Homo sapiens with 42 samples.

Results

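The mRNAs of 10 genes of the interleukin-6 family were followed through senescence and COPI knockdown in human lung fibroblasts. The 10 were chosen by name from 28266 gene symbols. They are the cytokines IL6, LIF, IL11 and CLCF1, the receptor chains IL6R, IL6ST (gp130), LIFR and OSMR, the transcription factor STAT3 and its inhibitor SOCS3. All 10 passed the filter on low counts in each fit. The lowest level of any of them in any library was 2.08 CPM, the unit used here for read counts scaled to 1000000 per library.

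Poly(A) RNA came from 42 libraries in 12 groups, all collected at day 10. IMR90 is a strain of human lung fibroblasts. ER:RAS cells are IMR90 fibroblasts with a fusion of the oestrogen receptor and oncogenic RAS, which 4-hydroxytamoxifen (4OHT) switches on to give oncogene-induced senescence (OIS). For OIS, 100 nM 4OHT was compared with DMSO (18 libraries, 3 per group). For damage-induced senescence, IMR90 cells were given the DNA-damaging agent bleomycin (BLEO) at 50 µg/ml for 24 h, or DMSO (24 libraries, 4 per group). After 7 days of culture, 1 µg/ml doxycycline was given for 72 h to cells with the control shRNA or with COPB2 shRNA 1 or 2. COPB2 is a subunit of the coat of COPI transport vesicles. Controls thus also received doxycycline, and every ER:RAS control carries the fusion. The labels call the control an shRNA, while the names of its libraries read shEV. Whether it expresses a hairpin is not stated, and it is called the control shRNA here, as in the labels. All cultures derive from a single fibroblast strain. The labels do not say whether replicates are separate cultures. The study's supplement calls the replicates behind its gene set plots of COPB2 knockdown in both models independent experiments, and for bleomycin it counts fewer of them than the libraries used here. The p-values measure the spread between these libraries. Values of single libraries are given in the order of their replicate numbers.

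Totals ran from 13148194 to 23597310 counts per library. COPB2 stood at 267 to 620.2 CPM under the control shRNA (14 libraries) and at 33.9 to 122 CPM under a COPB2 shRNA (28 libraries). Transcripts of the fusion, HRAS and ESR1, were at 2573 to 6783 and 1438 to 2944 CPM in ER:RAS against 23.04 to 174 and 0 to 0.632 CPM in IMR90 libraries. Fibroblast markers (6 genes) summed to 7677 to 25097 CPM. Epithelial, leukocyte and endothelial markers (3 genes each) summed to at most 1.82, 3.00 and 13.7 CPM. KRT5 was at 3 counts or fewer in all 42 libraries. All 54 pairs of replicate libraries differed by more than sampling noise.

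Cytokines of this family signal through receptor complexes that contain gp130. Interleukin-6 first binds IL6R and interleukin-11 binds IL11RA. LIF uses gp130 paired with LIFR, and OSMR pairs with gp130 for oncostatin M. JAK kinases bound to the receptors then phosphorylate STAT3, whose target SOCS3 feeds back on the receptor. IL6 is among the best known factors of the senescence-associated secretory phenotype of fibroblasts.

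The reference used held no promoter window for LIF and CLCF1, which were not searched. For the other cytokines, the windows before the annotated starts of IL6 (chr7:22726950-22727199, plus strand) and IL11 (chr19:55370464-55370713, minus strand) are shown. Each is 250 bases from RefSeq on GRCh38.p14 in the direction of transcription. Capitals mark matches to 4 motifs, searched on both strands: TGANTCA (AP-1), TTCNNNGAA (STAT), GGANTTTCC (a core of the kappaB motif) and TTGCNNAA (C/EBP).
IL6: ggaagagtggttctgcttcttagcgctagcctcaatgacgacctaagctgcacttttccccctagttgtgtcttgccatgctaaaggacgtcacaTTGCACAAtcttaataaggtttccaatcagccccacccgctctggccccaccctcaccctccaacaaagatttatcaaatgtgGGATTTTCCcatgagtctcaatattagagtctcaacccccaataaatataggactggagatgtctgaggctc
IL11: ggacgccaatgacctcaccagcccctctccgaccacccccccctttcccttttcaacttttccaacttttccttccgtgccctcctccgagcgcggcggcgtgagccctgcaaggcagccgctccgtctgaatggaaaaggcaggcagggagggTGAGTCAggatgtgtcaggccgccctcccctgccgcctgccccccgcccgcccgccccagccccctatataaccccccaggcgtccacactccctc
IL6 holds TTGCACAA at -155 to -148 and GGATTTTCC at -72 to -64, counted back from the annotated start. IL11 holds TGAGTCA at -96 to -90. Of 27305 windows of this kind before gene starts, 1.47% held the kappaB core, 9.13% the C/EBP, 6.6% the AP-1 and 6.78% the STAT motif. No binding was measured, and the matches describe letters only.

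In OIS with the control shRNA all 4 cytokine mRNAs were higher than in DMSO-treated ER:RAS cells. IL11 was 244-fold higher, IL6 15.3-fold, LIF 14.99-fold and CLCF1 2.47-fold. IL6R and STAT3 were lower, and IL6ST, LIFR, OSMR and SOCS3 did not pass the test. Calls were 4 higher and 2 lower among the 10, where 15.5% and 20.2% of the 14297 genes in the fit were called. The median log2 fold change was -0.056 for the 10 and -0.079 for all genes. The 3 endothelial markers summed to 1.11 to 4.44 CPM in the 9 ER:RAS DMSO libraries and to 8.64 to 13.7 CPM in the 9 OIS libraries. Their part in these results was not tested.

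IL11 (chromosome 19 from 55364382 to 55370463 on the minus strand; GRCh38.p14, as for all positions) encodes a cytokine that acts on fibroblasts and haematopoietic cells. With DMSO it had 6.93, 5.26 and 8.03 CPM, and in OIS 1678, 1605 and 2037 CPM. No OIS library came near the DMSO range. For IL11 the log2 fold change was 7.93 ± 0.38 (SE; edgeR adjusted p = 1.03e-09).

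LIF (chromosome 22 from 30240453 to 30246759 on the minus strand) encodes leukaemia inhibitory factor. It went from 91.3, 115 and 84.0 CPM with DMSO to 1831, 1481 and 1338 CPM in OIS, a log2 fold change of 3.91 ± 0.17 (SE; edgeR adjusted p = 4.23e-10). IL6 (chromosome 7 from 22727200 to 22731998 on the plus strand) went from 7.90, 6.90 and 11.3 CPM to 226, 132 and 80.1 CPM, a log2 fold change of 3.93 ± 0.47 (SE; edgeR adjusted p = 1.12e-05). All OIS libraries lay above all DMSO libraries for both genes, with a wider spread for IL6. CLCF1 (chromosome 11 from 67364168 to 67374177 on the minus strand) encodes a ligand of the ciliary neurotrophic factor receptor. It went from 6.21, 9.25 and 5.77 CPM to 20.8, 18.8 and 16.4 CPM, again with no overlap, and its log2 fold change was 1.31 ± 0.22 (SE; edgeR adjusted p = 0.000297).

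Several of these genes share exon sequence with others. Exons on the opposite strand overlap IL6 (IL6-AS1, STEAP1B), LIF (LIF-AS1), LIFR (LIFR-AS1), OSMR (RICTOR) and IL6ST (a noncoding gene without a symbol). CLCF1 shares exons on its own strand with a protein-coding gene without a symbol. The study's methods name a directional library kit and a stranded alignment, but the submitters' notes list other aligners, and the strand setting of the counting is not given in the sources used here. Whether the counting separated the genes on opposite strands is therefore not known.

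With the COPB2 shRNAs the same 4 cytokines were called higher in OIS. For IL11 the log2 fold changes were 7.97 with COPB2 shRNA 1 and 7.56 with COPB2 shRNA 2. For LIF they were 4.00 and 3.54, for IL6 3.92 and 4.07, and for CLCF1 1.43 and 0.96. The highest edgeR adjusted p of these 8 was 0.00303. With COPB2 shRNA 1, 4 of 10 family genes were higher and 3 lower, against 15.4% and 21.5% of all genes. With COPB2 shRNA 2, 4 were higher and 2 lower, against 14.9% and 22% of all genes. CLCF1 lay at 5.74 to 8.94 CPM in the 6 DMSO and 13.3 to 22.03 CPM in the 6 4OHT libraries with a COPB2 shRNA.

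**Figure D1:**
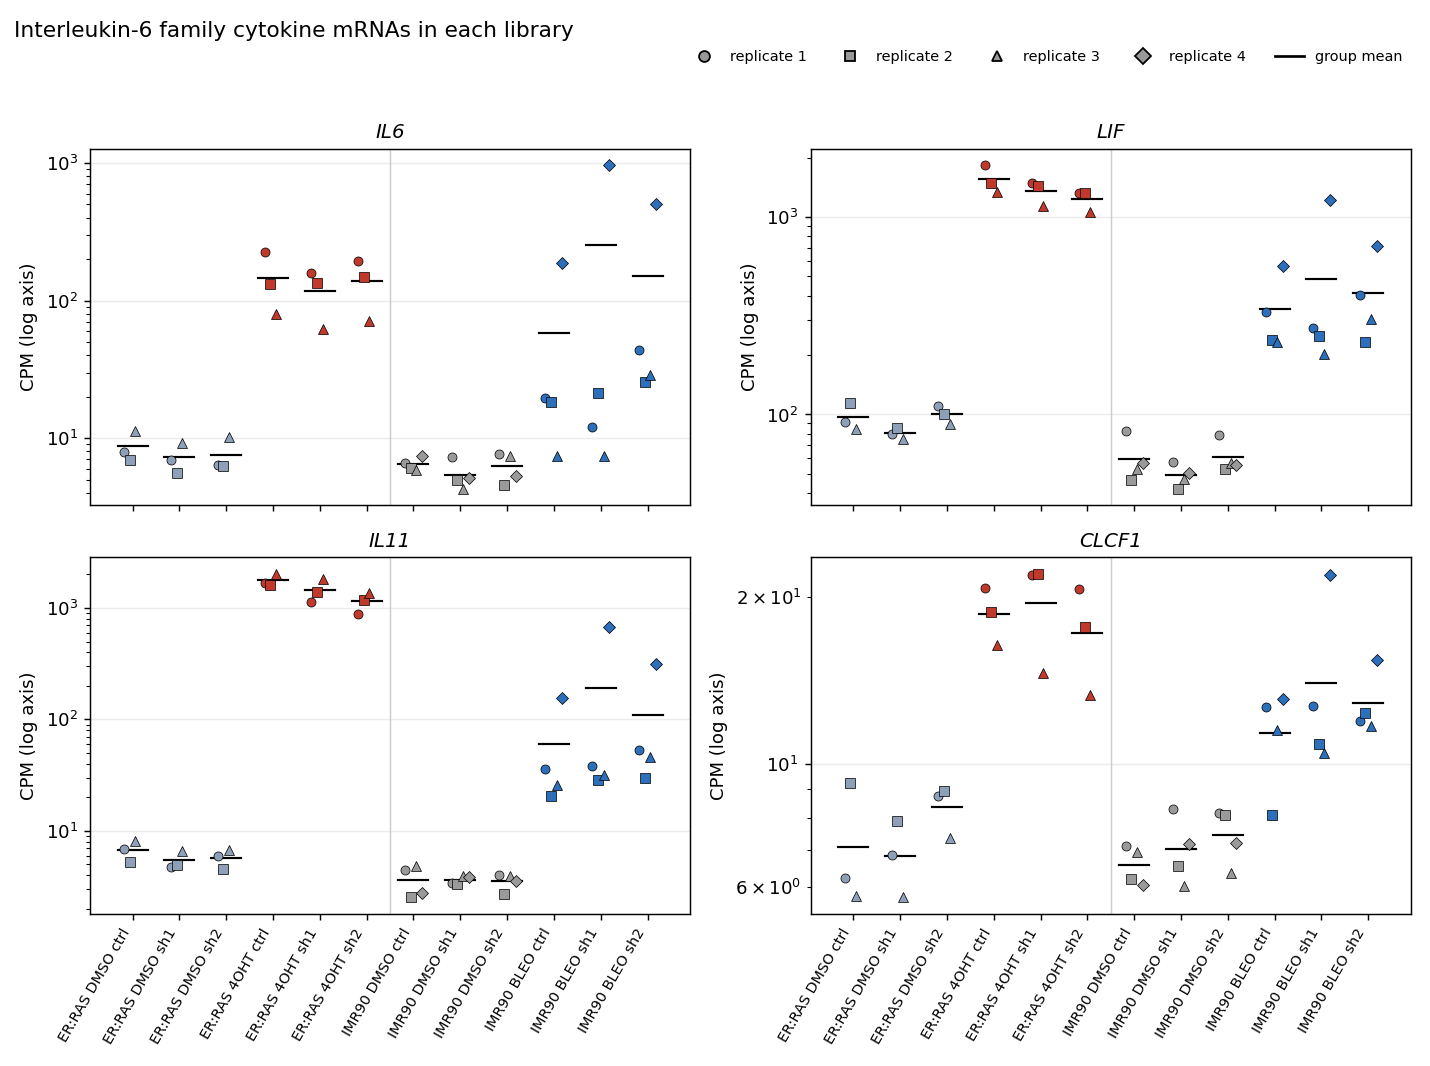
CPM (log axis) of IL6, LIF, IL11 and CLCF1 in each of the 42 libraries by group, with 1 point per library shaped by replicate number and a bar at the group mean. IL11 lies at 4.56 to 8.03 CPM in the 9 ER:RAS DMSO libraries and at 888 to 2037 CPM in the 9 OIS libraries, and replicate 4 (diamonds) stands above the other bleomycin libraries of its group for IL6, LIF and IL11.

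After bleomycin, LIF, IL11 and CLCF1 were higher than with DMSO in IMR90 cells with the control shRNA. IL11 was 16.2-fold, LIF 5.63-fold and CLCF1 1.69-fold higher. IL6R, OSMR, STAT3 and SOCS3 were lower, and IL6 did not pass the test. Calls were 3 higher and 4 lower among the 10, where 15.4% and 15.8% of the 14783 genes in the fit were called. The median log2 fold change was -0.43 for the 10 and -0.014 for all genes. The 3 leukocyte markers summed to 0.146 to 0.880 CPM in the 12 DMSO and to 1.25 to 3.00 CPM in the 12 bleomycin libraries of IMR90, which did not overlap. Their part in these results was not tested.

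IL6 had 6.64, 6.05, 5.82 and 7.47 CPM with DMSO and 19.6, 18.5, 7.36 and 187 CPM after bleomycin. Replicate 4 was far above the others, and replicate 3 fell within the DMSO range. For IL6 the log2 fold change was 3.13 ± 1.29 (SE; edgeR adjusted p = 0.0706). Without the 6 IMR90 libraries numbered replicate 4 it was 1.319 (edgeR adjusted p = 0.0317), which passed the test at a smaller size. With only the libraries compared it was 3.15 and passed too (edgeR adjusted p = 0.0317). In the 8 fits with 1 library left out it was 1.24 to 3.50 and never passed (edgeR adjusted p from 0.0548 to 0.478).

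Replicate 4 also stood out for IL6 with the COPB2 shRNAs. After bleomycin IL6 had 12.1, 21.3, 7.38 and 967 CPM with COPB2 shRNA 1 and 44.04, 25.5, 28.8 and 503 CPM with COPB2 shRNA 2. The 8 DMSO libraries with these shRNAs had 4.27 to 7.72 CPM. IL6 was called higher with both, by 5.53 ± 1.43 (SE; edgeR adjusted p = 0.00436) and 4.58 ± 1.37 (SE; edgeR adjusted p = 0.0108) on the log2 scale. Leaving out the 1 bleomycin library of replicate 4 ended each call, at 1.31 (edgeR adjusted p = 0.309) and 2.38 (edgeR adjusted p = 0.113). Without replicate 4 in all 6 IMR90 groups both calls held, at 1.31 and 2.32 (edgeR adjusted p = 0.0304 and 0.000838).

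IL11 had 4.43, 2.52, 4.84 and 2.74 CPM with DMSO and 35.9, 20.4, 25.6 and 157 CPM after bleomycin, a log2 fold change of 4.01 ± 0.99 (SE; edgeR adjusted p = 0.00343). LIF had 82.4, 46.6, 52.7 and 56.5 CPM with DMSO and 330.3, 237, 232 and 565 CPM after bleomycin, a log2 fold change of 2.49 ± 0.48 (SE; edgeR adjusted p = 0.000356). Replicate 4 was again the highest bleomycin library, but here the other 3 were also above every DMSO library. Without all replicate 4 libraries the log2 fold changes were 2.81 for IL11 and 2.15 for LIF (edgeR adjusted p = 1.15e-05 and 7.48e-05). CLCF1 rose from 7.12, 6.19, 6.94 and 6.05 CPM to 12.7, 8.08, 11.5 and 13.1 CPM, by 0.76 ± 0.21 (SE; edgeR adjusted p = 0.00864) on the log2 scale, and its ranges did not overlap.

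With each COPB2 shRNA, 4 of 10 family genes were called higher and 4 lower after bleomycin. Of all genes, 17.4% were higher and 17.8% lower with COPB2 shRNA 1, and 21.7% and 18.3% with COPB2 shRNA 2. IL11 reached 38.4, 28.5, 31.4 and 670.4 CPM with COPB2 shRNA 1 and 53.1, 29.6, 46.2 and 314 CPM with COPB2 shRNA 2. LIF reached 276, 248, 201 and 1223 CPM and 402, 232, 304 and 709 CPM. In each set the last value, replicate 4, was the highest. The 3 leukocyte markers summed to 1.92 to 2.16 CPM in the 3 bleomycin libraries of replicate 4 and to 1.25 to 3.00 CPM in the other 9. The endothelial sums were 1.66 to 2.02 and 2.02 to 3.49 CPM. The fibroblast sums of replicate 4 after bleomycin were 13700, 7680 and 10800 CPM with the control shRNA and COPB2 shRNA 1 and 2, and 7680 CPM was the lowest of the 42 libraries. The part of these levels in the values of replicate 4 was not tested.

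IL6, LIF and IL11 also varied together among replicates. With the mean of each group taken away, Pearson's r of log2 CPM over the 42 libraries was 0.905 for IL6 and LIF, 0.884 for IL6 and IL11 and 0.869 for LIF and IL11. With IL6, LIF and IL11 in turn, CLCF1 gave 0.609, 0.76 and 0.496, and SOCS3 gave 0.702, 0.732 and 0.475. These values describe libraries that share groups and replicate numbers, the replicate 4 libraries included.

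Levels of different genes were compared as CPM per kilobase of transcript, with the control shRNA. In DMSO-treated ER:RAS cells STAT3 was highest (82.7) and IL11 lowest (2.83), each without overlap with its neighbour in the order. Between them came SOCS3, OSMR, LIF, IL6ST, IL6, LIFR, CLCF1 and IL6R, where only OSMR and LIF did not overlap as neighbours. In OIS IL11 (746), LIF (400.5) and IL6 (129.6) led without overlap. STAT3 and SOCS3 followed (46.8 and 44.9) and overlapped, and IL6R was last (0.809), overlapping LIFR (0.888).

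In IMR90 cells the order with DMSO also ran from STAT3 (91.2 CPM per kb) to IL11 (1.53 CPM per kb). After bleomycin LIF came first (88.1 CPM per kb) and overlapped STAT3 (64.3 CPM per kb). IL6 and IL11 (51.5 and 25.1 CPM per kb) overlapped their neighbours too, and IL6R was last (2.59 CPM per kb). The 4 cytokines summed to 37.1 to 43.4 CPM per kb in ER:RAS with DMSO and to 1186 to 1391 CPM per kb in OIS. LIF made up 56.4% to 68.3% of the sum with DMSO, and IL11 50.7% to 66.8% in OIS. In IMR90 the sums were 22.1 to 33.2 CPM per kb with DMSO and 83.9 to 386 CPM per kb after bleomycin, where IL11 held at most 17.1%.

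IL6R (chromosome 1 from 154405343 to 154469450 on the plus strand), the chain that binds interleukin-6, was lower in both kinds of senescence with every shRNA. In ER:RAS it had 27.7, 20.8 and 22.9 CPM with DMSO and 4.69, 4.10 and 5.19 CPM in OIS, a log2 fold change of -2.45 ± 0.23 (SE; edgeR adjusted p = 9.39e-07). In IMR90 it had 38.9, 47.0, 31.1 and 40.5 CPM with DMSO and 14.02, 17.8, 12.5 and 15.4 CPM after bleomycin, a log2 fold change of -1.43 ± 0.17 (SE; edgeR adjusted p = 1.6e-06). Its ranges did not overlap in any of the 6 comparisons of senescent with DMSO libraries. With the COPB2 shRNAs the log2 fold changes were -3.02 and -2.57 in OIS and -1.87 and -1.62 after bleomycin (highest edgeR adjusted p = 5.31e-07). In bulk RNA, fewer cells that express a gene and less of its RNA per cell cannot be told apart.

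IL6ST (chromosome 5 from 55935095 to 55994963 on the minus strand), which encodes gp130, did not pass the test in any comparison unless library trends were taken out. In ER:RAS it had 231, 42.8 and 309 CPM with DMSO and 20.5, 136 and 381 CPM in OIS. The log2 fold change was -0.20 ± 1.31 (SE; edgeR adjusted p = 0.931), with a 95% interval of -2.98 to 2.58. In IMR90 it had 124, 619, 662 and 554 CPM with DMSO and 318, 106, 603 and 583 CPM after bleomycin. There the log2 fold change was -0.33 ± 0.59 (SE; edgeR adjusted p = 0.725), with a 95% interval of -1.54 to 0.89. Libraries of a single group differed by up to 22.1-fold, and the ranges overlapped throughout.

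The level of IL6ST moved with that of other long transcripts of low GC content. Its own transcript is 9.027 kb long with 36.5% GC. An index was taken in each library as the median log2 deviation, from each gene's mean, of 1393 genes with transcripts of at least 5182 nt and at most 42% GC. In OIS with the control shRNA it was -1.48 in replicate 1 and 0.449 in replicate 3, where IL6ST had 20.5 and 381 CPM. Over the 42 libraries Pearson's r with this index was 0.977 for IL6ST, 0.792 for LIFR and 0.390 for OSMR. For the other 7 genes it lay between -0.467 and 0.208. These values include differences between groups. With the mean of each group taken away, STAT3 gave r = -0.824 with IL6ST and -0.746 with LIFR. SOCS3 gave -0.553 and -0.688 with them. Apart from LIFR, the remaining genes gave -0.406 to 0.465 with IL6ST. The points share groups and libraries. An alternative chosen after the data were seen took out each library's trends on GC content and transcript length, for all genes. With it IL6ST was called lower after bleomycin with COPB2 shRNA 2 (log2 fold change -0.63, edgeR adjusted p = 0.0334), and CLCF1 lost its call there (0.56, edgeR adjusted p = 0.0702).

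LIFR (chromosome 5 from 38474668 to 38608403 on the minus strand) encodes the chain that binds LIF. In ER:RAS it had 59.6, 14.7 and 70.7 CPM with DMSO and 2.08, 6.01 and 20.02 CPM in OIS, and the ranges overlapped. For LIFR the log2 fold change was -2.44 ± 1.15 (SE; edgeR adjusted p = 0.114). The COPB2 shRNAs gave -2.84 ± 1.17 (SE; edgeR adjusted p = 0.0697) and -2.30 ± 1.14 (SE; edgeR adjusted p = 0.133), which did not pass either. The DESeq2 Wald test called LIFR lower with the control shRNA (-2.32, DESeq2 adjusted p = 0.0407). It also did so with COPB2 shRNA 1 (-2.69, DESeq2 adjusted p = 0.0146) but not with COPB2 shRNA 2. With the replicate number as a block, edgeR called LIFR lower with each shRNA (highest edgeR adjusted p = 0.00485). With the trends on GC content and transcript length taken out, LIFR was called lower in OIS with all 3 shRNAs, at -2.45, -2.50 and -2.24 on the log2 scale (edgeR adjusted p = 1.19e-05, 8.59e-06 and 2.58e-05). That correction also raised the share of all genes called in OIS with the control shRNA to 55.3%. In IMR90 LIFR had 24.0, 92.4, 109 and 74.96 CPM with DMSO and 39.7, 20.2, 74.4 and 59.9 CPM after bleomycin, with a log2 fold change of -0.67 ± 0.47 (SE; edgeR adjusted p = 0.306), and -0.53 (edgeR adjusted p = 0.0354) with the trends taken out.

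**Figure D2:**
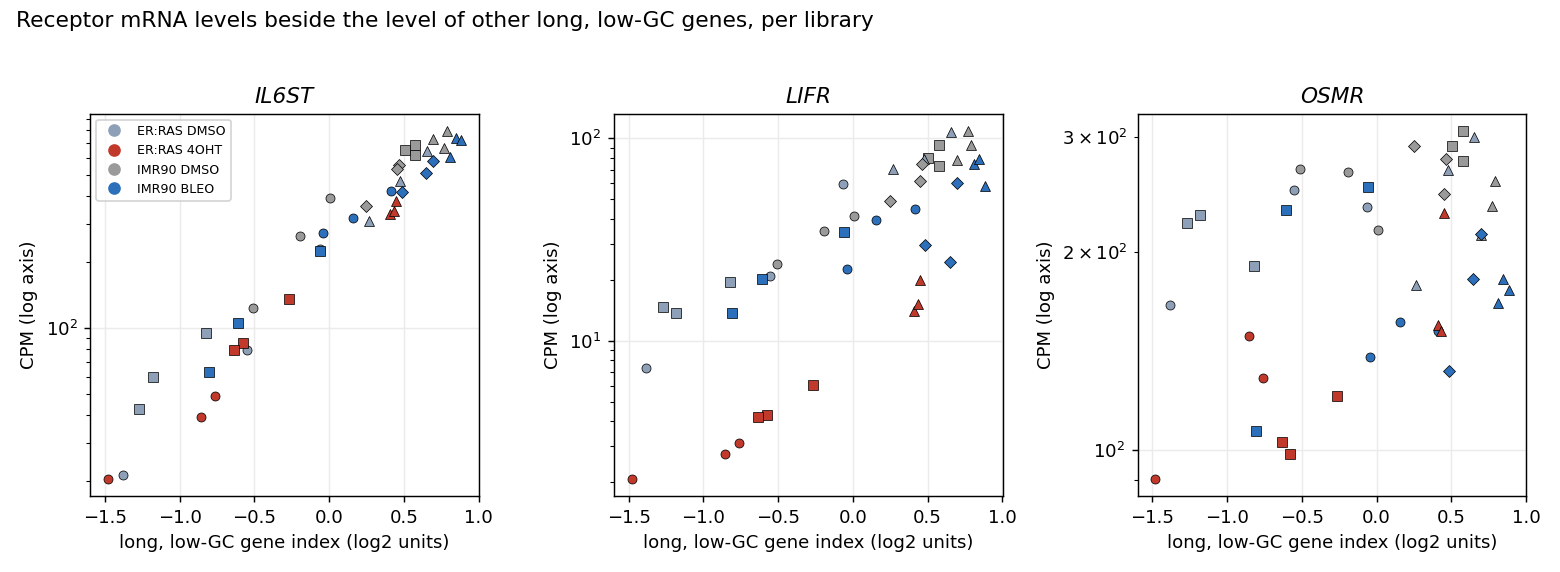
CPM (log axis) of IL6ST, LIFR and OSMR in each of 42 libraries against the median log2 deviation of long genes of low GC content in that library, coloured by cell line and treatment and shaped by replicate number as in the plot of cytokines. IL6ST follows the index across all groups (r = 0.977), while the ER:RAS 4OHT points of LIFR (2.08 to 20.02 CPM) lie below other libraries with a like index.

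OSMR (chromosome 5 from 38846012 to 38945579 on the plus strand) encodes the chain for oncostatin M. In ER:RAS it had 234, 222 and 178 CPM with DMSO and 90.3, 121 and 229.7 CPM in OIS, where replicate 3 lay within the DMSO range. For OSMR the log2 fold change was -0.60 ± 0.34 (SE; edgeR adjusted p = 0.197). With COPB2 shRNA 1 it was called lower, at -1.02 ± 0.34 (SE; edgeR adjusted p = 0.0282). The call ended in 4 of 6 fits with 1 library left out, namely DMSO replicate 1 or 3 or 4OHT replicate 1 or 2 (edgeR adjusted p up to 0.129). With COPB2 shRNA 2 it was not called, at -0.78 ± 0.34 (SE; edgeR adjusted p = 0.0901). With the trends on GC content and length taken out OSMR passed in all 3, at -0.40, -0.76 and -0.55 (highest edgeR adjusted p = 0.0463).

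After bleomycin OSMR fell from 268, 306, 235 and 277 CPM to 157, 232, 167 and 214 CPM with the control shRNA, and no bleomycin library was above a DMSO library. Its log2 fold change was -0.53 ± 0.17 (SE; edgeR adjusted p = 0.0227). The call ended in 4 of 8 fits with 1 library left out, namely bleomycin replicate 1 or 3 or DMSO replicate 2 or 4 (edgeR adjusted p up to 0.106). It also ended without all replicate 4 libraries (log2 fold change -0.53, edgeR adjusted p = 0.123). With COPB2 shRNA 1 and 2 the log2 fold changes were -0.56 and -0.82 (edgeR adjusted p = 0.0153 and 0.000745). The call with COPB2 shRNA 1 ended without all replicate 4 libraries (-0.48, edgeR adjusted p = 0.158) and without bleomycin replicate 1 (edgeR adjusted p = 0.0664).

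STAT3 (chromosome 17 from 42313324 to 42388442 on the minus strand), the main transcription factor downstream of gp130, was lower in OIS. It had 401, 524 and 295 CPM with DMSO and 265, 218 and 208 CPM with 4OHT, and every OIS library was below every DMSO library. For STAT3 the log2 fold change was -0.91 ± 0.19 (SE; edgeR adjusted p = 0.00165). In a fit of these 6 libraries alone it was not called (edgeR adjusted p = 0.083). With COPB2 shRNA 1 and 2 it was lower, at -0.92 and -0.95 on the log2 scale (edgeR adjusted p = 0.0014 and 0.00122).

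After bleomycin STAT3 had 318, 382, 298 and 268 CPM, against 560.0, 446, 357 and 432 CPM with DMSO. Replicate 2 after bleomycin was above replicate 3 with DMSO. The call at a log2 fold change of -0.53 ± 0.18 (SE; edgeR adjusted p = 0.0269) depended on single libraries. The call ended in 5 of 8 fits with 1 library left out, namely DMSO replicate 1 or 2 or bleomycin replicate 1, 3 or 4 (edgeR adjusted p up to 0.122). Without all replicate 4 libraries the log2 fold change was -0.44 (edgeR adjusted p = 0.179). With COPB2 shRNA 1 and 2 it was -0.61 and -0.55 (edgeR adjusted p = 0.01 and 0.0179), and those calls too ended without replicate 4 (edgeR adjusted p = 0.143 and 0.187).

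SOCS3 (chromosome 17 from 78356778 to 78360925 on the minus strand), the feedback inhibitor, was called lower after bleomycin and not in OIS. In ER:RAS it had 99.1, 143 and 82.7 CPM with DMSO and 154, 107 and 107 CPM in OIS, ranges that overlapped. The log2 fold change was 0.088 ± 0.25 (SE; edgeR adjusted p = 0.831), with a 95% interval of -0.44 to 0.62. In IMR90 it had 111, 106, 86.4 and 99.8 CPM with DMSO and 27.04, 41.3, 22.4 and 39.96 CPM after bleomycin, a log2 fold change of -1.65 ± 0.30 (SE; edgeR adjusted p = 0.000197). Every bleomycin library was below every DMSO library with each of the 3 shRNAs. COPB2 shRNA 1 and 2 gave log2 fold changes of -1.54 and -1.40 (edgeR adjusted p = 0.000321 and 0.000733).

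**Figure D3:**
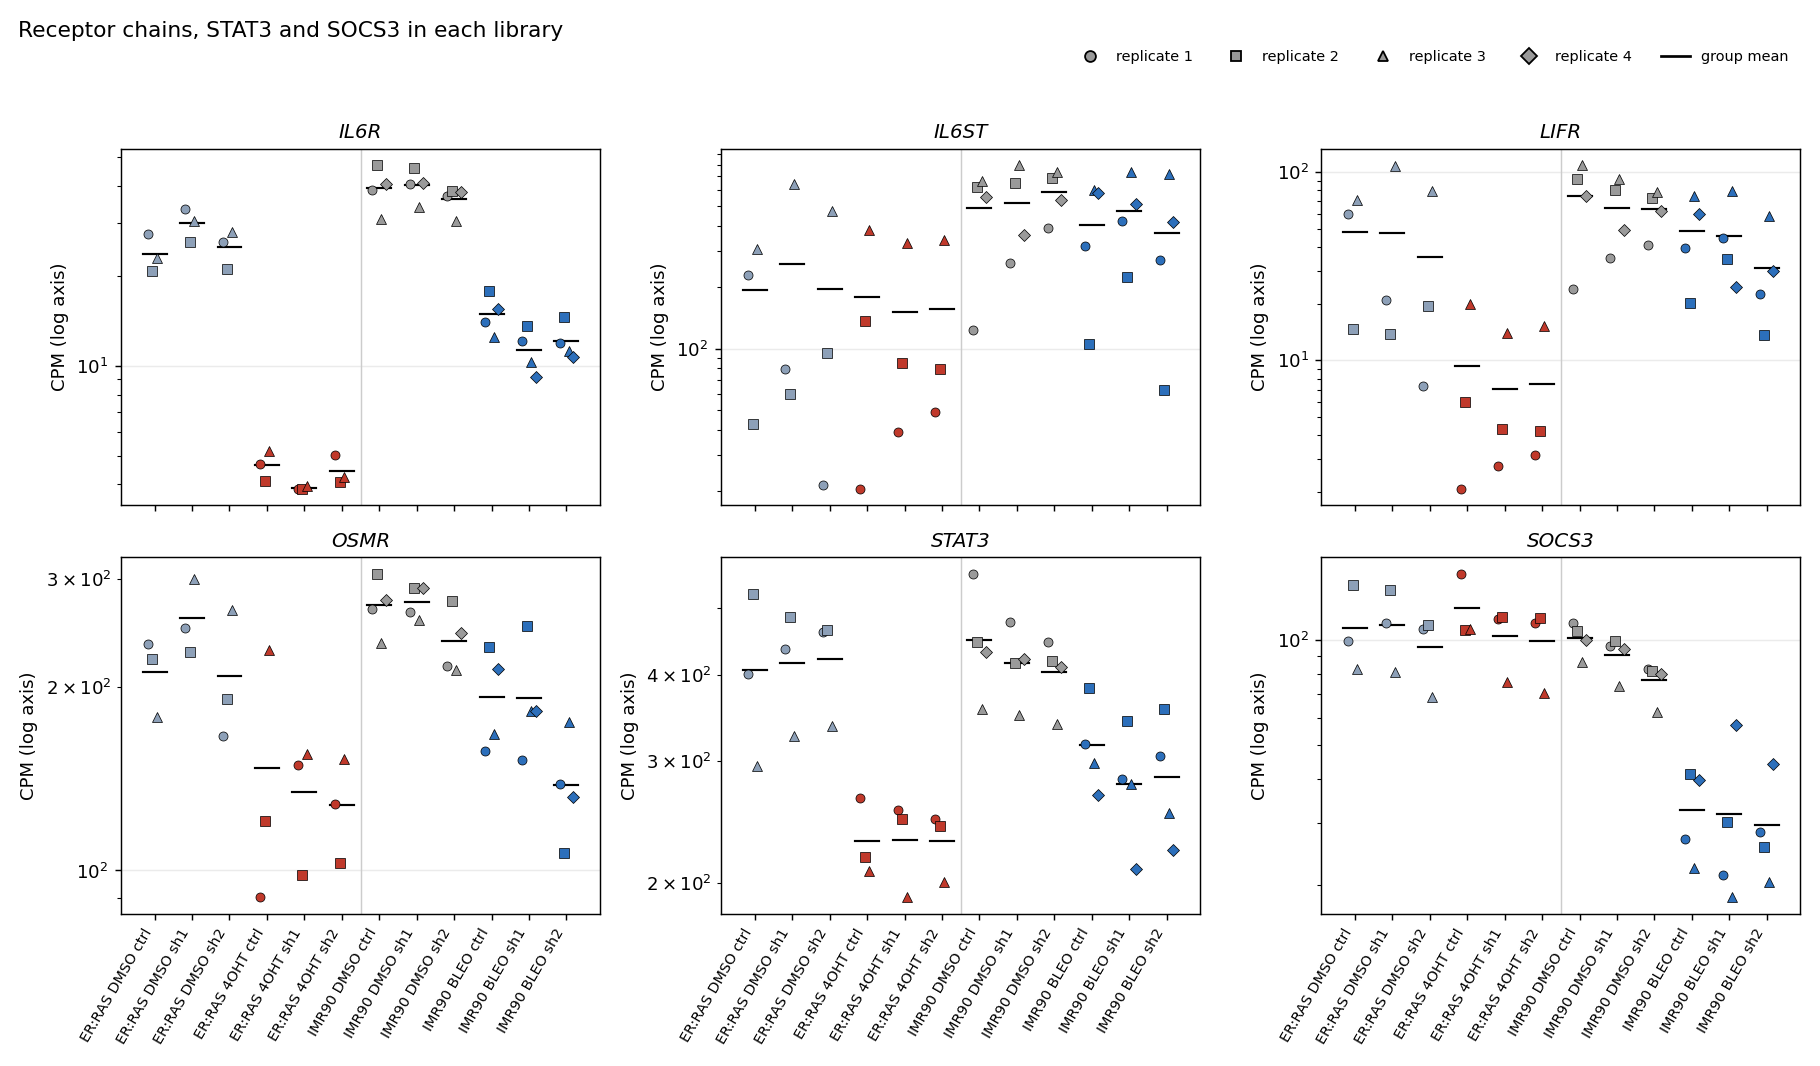
CPM (log axis) of the 4 receptor chains, STAT3 and SOCS3 in each of the 42 libraries by group, with 1 point per library shaped by replicate number and a bar at the group mean. IL6R and SOCS3 separate bleomycin (9.16 to 17.8 and 18.5 to 57.1 CPM) from IMR90 DMSO libraries (30.7 to 47.0 and 62.3 to 111 CPM), and IL6ST and LIFR spread widely within groups.

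Whether the responses of the 2 models differ was tested as an interaction in a fit of all 42 libraries. IL11 rose more in OIS than after bleomycin, with a difference of log2 fold changes of 3.99 ± 1.14 (SE; edgeR adjusted p = 0.0106). IL6R fell more in OIS, with a difference of -0.95 ± 0.24 (SE; edgeR adjusted p = 0.00356), a call that was lost with only the libraries compared (edgeR adjusted p = 0.0557). SOCS3 was higher in OIS relative to DMSO than after bleomycin, with a difference of 1.81 ± 0.43 (SE; edgeR adjusted p = 0.00207). These were 2 of 10 genes called higher and 1 lower, where 8.14% and 12.1% of all genes were. LIF and IL6 gave differences of 1.48 ± 0.57 (SE; edgeR adjusted p = 0.0611) and 0.91 ± 1.52 (SE; edgeR adjusted p = 0.767), which were not called. Without the replicate 4 libraries both were, at 1.88 and 2.77 (edgeR adjusted p = 6.27e-05 and 0.00237). The LIF difference, but not that of IL6, was also called by the DESeq2 Wald test (1.55, DESeq2 adjusted p = 0.0331). The replicate block (1.60, edgeR adjusted p = 0.00354) and only the libraries compared (1.48, edgeR adjusted p = 0.0306) called it too. Model and cell line cannot be told apart here, since 4OHT was given to ER:RAS and bleomycin to IMR90 cells.

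Among DMSO libraries with the control shRNA, 1 of the 10 genes differed between the lines. IL6R was lower in ER:RAS, at -0.73 ± 0.17 (SE; edgeR adjusted p = 0.0408) on the log2 scale, where 0.222% of all genes were called higher and 0.124% lower. The call ended in 5 of 7 fits with 1 library left out, namely ER:RAS replicate 1, 2 or 3 or IMR90 replicate 2 or 4 (edgeR adjusted p up to 0.247). The ranges of IL6R, LIF, IL11 and OSMR did not overlap between the lines. The nearest values in ER:RAS and IMR90 were close for LIF (84.0 and 82.4 CPM) and OSMR (234.4 and 235.3 CPM). The share of all genes without overlap was not counted, so these positions carry no test. LIF, IL11 and OSMR were not called. LIF and IL11 gave 0.70 ± 0.40 (SE; edgeR adjusted p = 0.469) and 0.90 ± 0.80 (SE; edgeR adjusted p = 0.586).

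**Figure D4:**
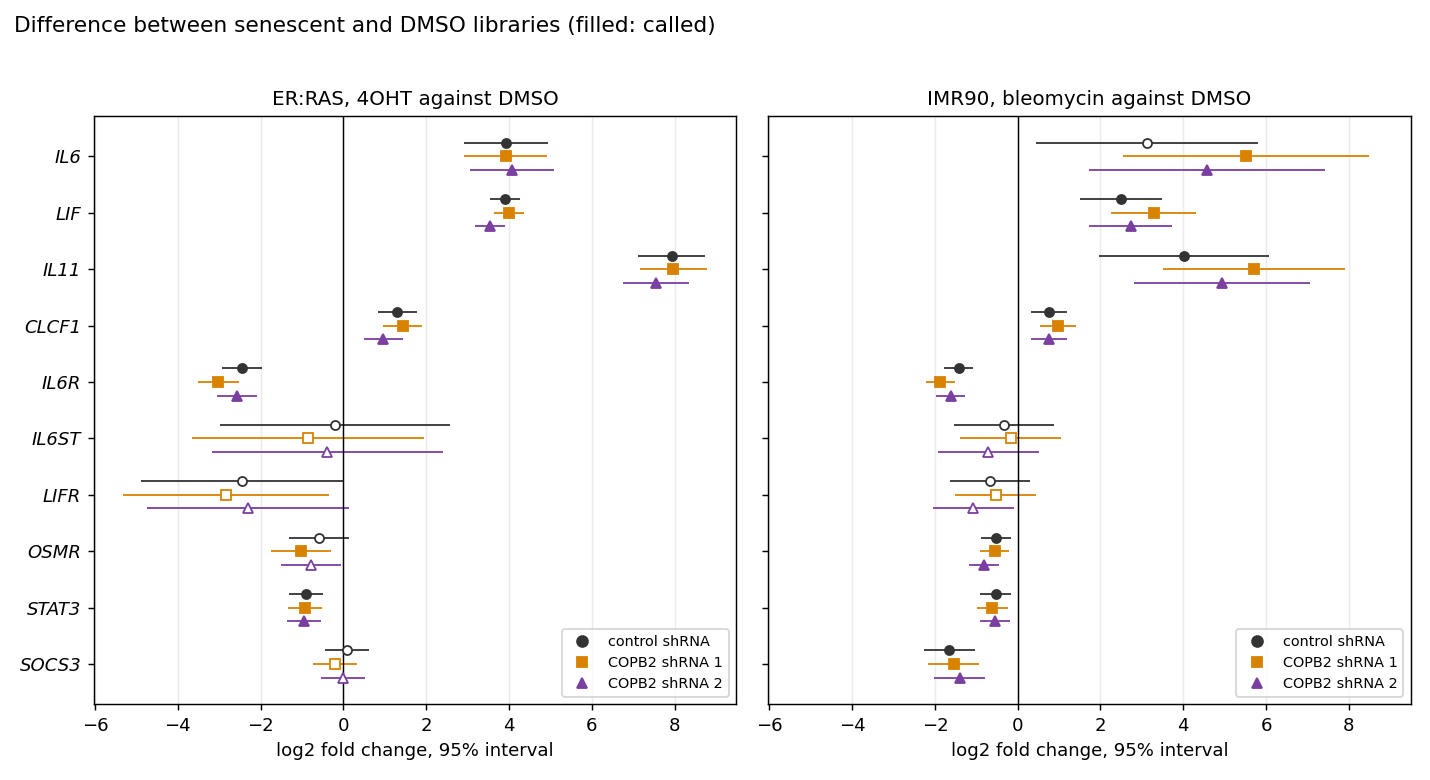
Log2 fold change of the 10 genes between senescent and DMSO libraries with its 95% interval, for ER:RAS (left) and IMR90 (right) and each shRNA, filled where the adjusted p was under 0.05. The points of IL11 lie at 7.56 to 7.97 in OIS and 4.01 to 5.70 after bleomycin, IL6R lies left of 0 in all 6 comparisons, and the intervals of IL6ST all cross 0.

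Each COPB2 shRNA was compared with the control shRNA in 4 states, and both COPB2 shRNAs share the control libraries. In all 8 comparisons edgeR called 0 of 10 family genes, and DESeq2 called 0 of those with an adjusted p. Of all genes, edgeR called 0.00699% and 0.00699% with COPB2 shRNA 1 and 2 in ER:RAS with DMSO, 0.140% and 0.224% in OIS, 0.00676% and 0.00676% in IMR90 with DMSO and 0.00676% and 0.0744% after bleomycin. An unadjusted p under 0.05 was reached by 2 genes in OIS with COPB2 shRNA 2, 1 after bleomycin with each COPB2 shRNA, and 0 in the other 5 comparisons. Of all genes, 640 of 14297 reached it in OIS with COPB2 shRNA 2, and 208 and 997 of 14783 after bleomycin with COPB2 shRNA 1 and 2. The family genes in OIS were IL11 and LIF. After bleomycin they were IL6R with COPB2 shRNA 1 (log2 difference -0.40, 95% interval -0.74 to -0.053) and OSMR with COPB2 shRNA 2 (-0.47, -0.83 to -0.11).

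In OIS, IL11 had 1124, 1379.8 and 1819 CPM with COPB2 shRNA 1 and 888, 1179 and 1367 CPM with COPB2 shRNA 2. All 3 libraries with COPB2 shRNA 2 lay below the 3 controls. The log2 differences from the control shRNA were -0.30 (95% interval -0.90 to 0.29) and -0.64 (-1.24 to -0.047). LIF had 1495, 1438 and 1141 CPM and 1317, 1315 and 1057 CPM, with log2 differences of -0.20 (-0.53 to 0.13) and -0.35 (-0.68 to -0.019). Again the libraries with COPB2 shRNA 2 were all below the controls. For IL6R those with COPB2 shRNA 1 were (3.86 to 3.97 against 4.10 to 5.19 CPM). The share of all genes whose ranges did not overlap was not counted, so these positions carry no test. IL6 had 158, 133 and 62.6 CPM and 193, 149 and 71.4 CPM, within the range of controls except for replicate 3, which was below it, with log2 differences of -0.31 (-1.21 to 0.58) and -0.097 (-0.99 to 0.80). All 6 differences had an edgeR adjusted p of 1, and the lowest unadjusted p, for IL11 with COPB2 shRNA 2, was 0.0362 by edgeR.

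After bleomycin the mean of IL6 was 58.1 ± 86.0 CPM (SD, n = 4) with the control shRNA, 252 ± 477 CPM (SD, n = 4) with COPB2 shRNA 1 and 150.4 ± 235 CPM (SD, n = 4) with COPB2 shRNA 2. The SDs exceed the means, since replicate 4 held most of each sum. The log2 differences from the control shRNA were 2.14 (95% interval -0.39 to 4.67) and 1.40 (-1.07 to 3.88). For IL11 they were 1.71 (-0.12 to 3.53) and 0.92 (-0.87 to 2.703), and for LIF 0.53 (-0.41 to 1.46) and 0.29 (-0.65 to 1.22). With replicate 4 left out of all IMR90 groups IL6 gave -0.17 and 1.10 and IL11 0.25 and 0.65. The sign for IL6 with COPB2 shRNA 1 thus turned without replicate 4.

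The change of each knockdown difference between DMSO and senescent libraries was tested with 4 interactions. By edgeR, 0 of 10 family genes and 0% of all genes were called, with 0 of the 10 at an unadjusted p under 0.05. DESeq2 called 0 of the 10 as well, with no adjusted p for IL6 and IL11 in IMR90, and 8 and 13 of all genes for COPB2 shRNA 1 and 2 in OIS.

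**Figure D5:**
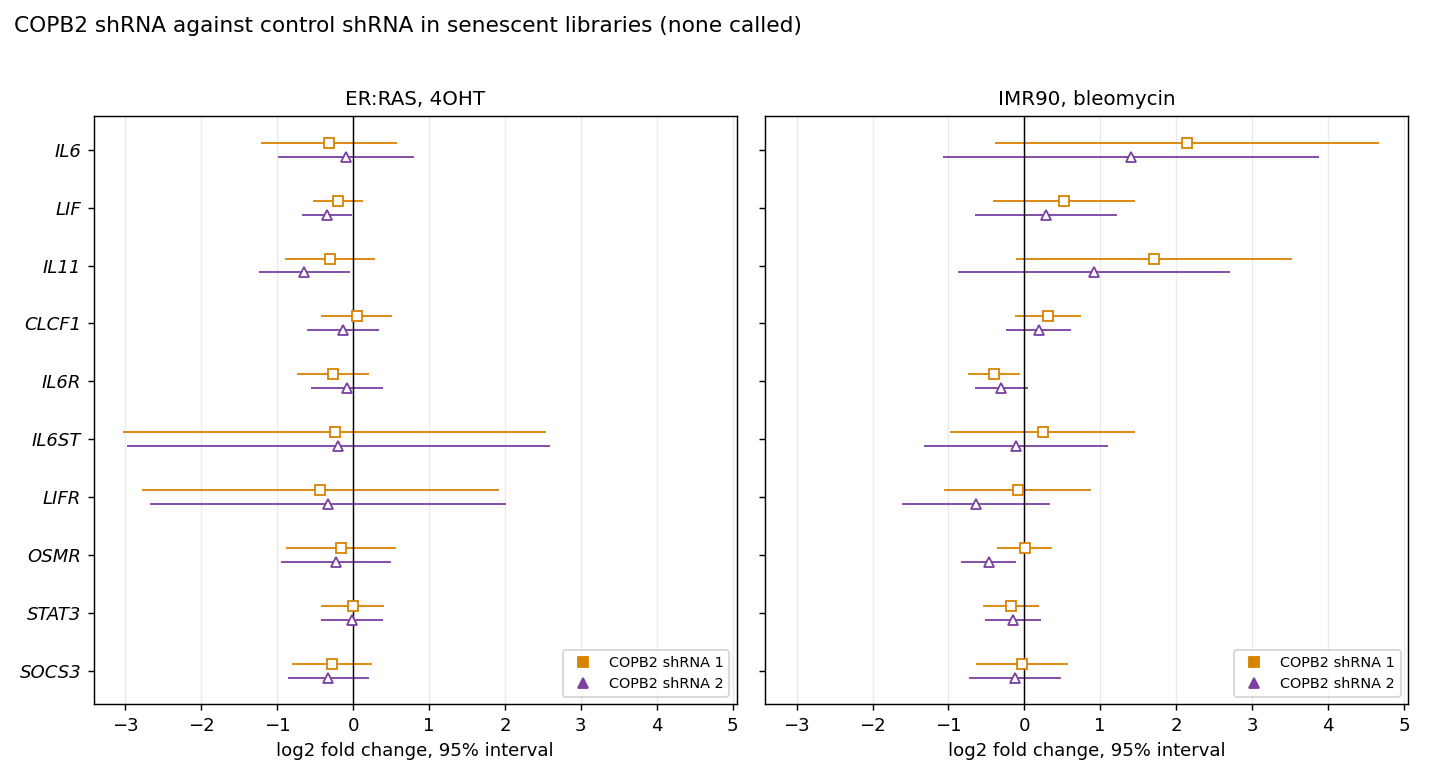
Log2 fold change of the 10 genes between COPB2 shRNA and control shRNA with its 95% interval, in ER:RAS cells with 4OHT (left) and IMR90 cells after bleomycin (right), with open symbols since none was called. The widest intervals belong to IL6ST and LIFR in OIS and to IL6 after bleomycin, where the points for COPB2 shRNA 1 and 2 are 2.14 and 1.40.

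The other genes of the pathway came from lists of 38 genes, of which 33 were tested. In OIS with the control shRNA 9 were called higher and 9 lower, where 15.5% and 20.2% of all genes were, with a median log2 fold change of 0.050 against -0.079 for all genes. After bleomycin 7 were higher and 12 lower, where 15.4% and 15.8% of all genes were, with a median of -0.17 against -0.014. Both COPB2 shRNAs gave 0 calls by edgeR among the 33 in all 8 comparisons with the control shRNA, where 0.00676% to 0.224% of all genes were called.

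Of 7 further ligands and their subunits, OSM, CNTF, IL27 and IL31 reached at most 5 counts in any library and were not tested. EBI3, a subunit of interleukin-27, was called higher after bleomycin, by 2.38 ± 0.35 (SE; edgeR adjusted p = 2.11e-05), and gave 0.73 ± 0.51 (SE; edgeR adjusted p = 0.297) in OIS.

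Among 4 other receptor chains, IL11RA, which binds interleukin-11, was lower in both models. It lay at 29.9 to 40.5 CPM with DMSO and at 3.17 to 12.002 CPM in OIS, a log2 fold change of -2.48 ± 0.46 (SE; edgeR adjusted p = 0.000549). After bleomycin the log2 fold change was -1.43 ± 0.27 (SE; edgeR adjusted p = 0.000281). IL31RA, a receptor chain for interleukin-31, was called higher in OIS, by 2.68 ± 0.46 (SE; edgeR adjusted p = 0.000302), and gave 0.15 after bleomycin. The difference between the models was 2.58 ± 0.49 (SE; edgeR adjusted p = 0.00021).

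Of 9 kinases, other STATs and adaptors, 1 was called higher and 2 lower in OIS, and 1 higher and 3 lower after bleomycin. STAT5A and the adaptor GAB1 were lower in both. Their log2 fold changes were -1.30 and -1.72 in OIS and -1.21 and -1.79 after bleomycin (highest edgeR adjusted p = 0.0291). The GAB1 call in OIS ended in 4 of 6 fits with 1 library left out, namely DMSO replicate 1 or 3 or 4OHT replicate 1 or 2 (edgeR adjusted p up to 0.0933). The STAT5A call in OIS ended without DMSO replicate 2 (edgeR adjusted p = 0.0697). With only the libraries compared, GAB1 and STAT5A both lost their calls in OIS (edgeR adjusted p = 0.0584 and 0.054).

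Of 6 other inhibitors, SOCS1 and CISH were lower in both models. SOCS1 had 58.8 to 107 CPM with DMSO and 8.55 to 28.6 CPM in OIS. The log2 fold changes of SOCS1 and CISH were -2.37 and -1.60 in OIS and -2.44 and -1.85 after bleomycin (highest edgeR adjusted p = 0.00149). SOCS2 was called higher after bleomycin, by 1.13 ± 0.15 (SE; edgeR adjusted p = 6.68e-06), and gave 0.78 ± 0.37 (SE; edgeR adjusted p = 0.123) in OIS. In OIS it was called higher with DESeq2 size factors (edgeR adjusted p = 0.0449) and by the DESeq2 Wald test (DESeq2 adjusted p = 0.0255). The replicate block and removal of the GC and length trends gave calls too (edgeR adjusted p = 0.00436 and 0.000209). The sheddases ADAM10 and ADAM17, which cut receptors from the cell surface, were not called in OIS or after bleomycin.

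Among 10 genes known to respond to STAT3, 5 were called higher and 3 lower in OIS, against 15.5% and 20.2% of all genes, with a median log2 fold change of 0.73. After bleomycin 2 were higher and 5 lower, against 15.4% and 15.8% of all genes, with a median of -0.46. Those higher in OIS were SERPINA3 (3.44), which encodes an acute-phase protease inhibitor, MCL1 (2.47), a survival factor of the BCL2 family, and the transcription factors MYC (1.87), JUNB (1.48) and CEBPB (1.19; highest edgeR adjusted p of the 5 = 0.00192). After bleomycin MYC was higher, by 0.61 ± 0.14 (SE; edgeR adjusted p = 0.00202), and SERPINA3 lower, at -1.14 ± 0.35 (SE; edgeR adjusted p = 0.0154). For SERPINA3 the call ended without bleomycin replicate 1 or 3 or DMSO replicate 4 (edgeR adjusted p up to 0.0762). It also ended with only the libraries compared and without all replicate 4 libraries (edgeR adjusted p = 0.0793 and 0.0928). MCL1, JUNB and CEBPB gave 0.16, -0.22 and 0.11 and were not called.

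The difference between the models was called for SERPINA3 (4.66), MCL1 (2.37), JUNB (1.78) and MYC (1.33; highest edgeR adjusted p of the 4 = 0.000865). CEBPD, another C/EBP factor, and the kinase gene PIM1 were lower in both models. Their log2 fold changes were -1.28 and -2.25 in OIS and -1.30 and -2.48 after bleomycin (highest edgeR adjusted p = 0.00766). The CEBPD call in OIS ended without 4OHT replicate 2 or 3 (edgeR adjusted p up to 0.0646) and with only the libraries compared (edgeR adjusted p = 0.0576).

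The genes whose log2 CPM followed IL6 most closely over the 42 libraries were CXCL1, CXCL2, CXCL3, G0S2 and CXCL6 (r from 0.954 to 0.971). Those closest to LIF were MMP3, SERPINB2, STC1, PTPRN and POU2F2 (r from 0.984 to 0.990), and those closest to IL11 were NRG1, IL1B, AREG, POU2F2 and STC1 (r from 0.987 to 0.990). For SOCS3 they were FAM20C, SLC7A7, RASL12, DENND2B and BTN3A2 (r from 0.934 to 0.984). The points share groups and libraries, so these values describe the pattern over groups and carry no test.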

How the data were processed

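The authors deposited raw read counts for 28266 gene symbols in 42 libraries, with no normalization. The study's methods name Tophat, hg19 and HTSeq, whereas the submitters' processing notes list DRAGEN, STAR 2.7.8a, DESeq2 1.32.0 and hg38, so the aligner, annotation and strand setting were not settled. Coordinates come from RefSeq on GRCh38.p14 (10 of 10 symbols matched). Transcript lengths and GC content come from canonical GENCODE transcripts (95.9% of genes tested had both). Depth was 13148194 to 23597310 counts per library, and 3 counts are 0.110 to 0.271 CPM (counting error only).

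Groups follow the labels. After filterByExpr and TMM scaling, the robust quasi-likelihood F-test of edgeR 4.0.16 (R 4.3.3) was fitted to 18 ER:RAS libraries (14297 genes), 24 IMR90 libraries (14783 genes) and, between lines, all 42 (15299 genes). P-values are two-sided and Benjamini-Hochberg adjusted across every gene in the fit, and "called" means an adjusted p under 0.05. The SE is the absolute log2 fold change over the square root of F. CPM uses the TMM factors of all 42 libraries, with a prior count of 2 for log2 values. The steps were tested on simulated data. The 10 genes, pathway lists, marker lists and tests were chosen with earlier results of these data known. Pathway genes are named where called with the control shRNA in OIS or after bleomycin at an absolute log2 fold change of 1 or more, except 1 that is not reported here. For IL6, LIF, IL11 and SOCS3 the 5 most correlated genes are named.

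Alternatives were DESeq2 size factors, no filter, the Wald test of DESeq2 1.42.0, only the libraries compared, the replicate block, a limit of 1 on the absolute log2 fold change, each library left out, the 6 libraries of replicate 4 left out and, chosen after seeing the data, removal of each library's trends on GC content and transcript length.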

Additional observations from a re-analysis of the deposited data

Results flagged for a closer look

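Among 60 sets of 4 IMR90 libraries (10 genes in 6 groups), 9 held a library that stood apart by Dixon's criterion at the 95% level, which chance alone meets in about 1 of 20 sets, and 7 of the 9 were replicate 4 after bleomycin. For IL6 this library had 187 CPM with the control shRNA, 967 CPM with COPB2 shRNA 1 and 503 CPM with COPB2 shRNA 2, where the highest of the other 3 libraries had 19.6, 21.3 and 44.04 CPM. For IL11 it had 157, 670.4 and 314 CPM against at most 35.9, 38.4 and 53.1 CPM, and for LIF with COPB2 shRNA 1 1223 CPM against at most 276 CPM. The DMSO libraries of replicate 4 did not stand apart by this criterion. LIF was at 78.8 CPM in replicate 1 of IMR90 with DMSO and COPB2 shRNA 2, above the other 3 libraries (52.9 to 56.7 CPM), and SOCS3 was at 62.3 CPM in replicate 3 of the same group, below the others (79.8 to 82.7 CPM).

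The response to senescence differed between OIS and bleomycin by a tested interaction for IL11 (3.99), IL6R (-0.95) and SOCS3 (1.81, all as differences of log2 fold changes).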

How the results depend on the processing

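Over the alternatives, 1665 of 1811 values for single genes kept their direction and their side of the threshold, 72 lost a call, 37 gained one and 37 changed sign. Of 42 calls of family genes between senescent and DMSO libraries, 32 held in every alternative other than the fold limit, and none changed sign in any. Those lost concern IL6, CLCF1, OSMR and STAT3. DESeq2 gave no adjusted p for IL6 and IL11 within IMR90. With a log2 fold change of at least 1, the called family genes after bleomycin were 4 with the control shRNA and 5 with each COPB2 shRNA, which follows from the limit. The replicate block raised the called family genes in the difference between models from 3 to 6 and all called genes in OIS with the control shRNA from 5098 to 7274, called LIFR lower in OIS with the 3 shRNAs (log2 fold change -2.94, -2.62 and -2.13, edgeR adjusted p = 0.000657, 0.00118 and 0.00485) and after bleomycin with COPB2 shRNA 2 (-1.17, edgeR adjusted p = 0.015), called OSMR lower in OIS with the control shRNA and COPB2 shRNA 2 (-0.71 and -0.77, edgeR adjusted p = 0.0255 and 0.016), and left 0 called in the knockdown comparisons. In the ER:RAS and IMR90 fits 14 of 18 and 23 of 24 libraries correlated best with their own number. The median r of deviations from group means was 0.604 and 0.363 for same-numbered pairs, against -0.469 and -0.0904 for other pairs. Deviations within a group cancel out, so the negative r of other pairs is in part set by taking group means away. Of the same-numbered pairs, 35 of 45 and 44 of 60 had an r over 0.1. Libraries of a number thus tended to deviate together, though not in every pair. The labels give no pairing, and the fits reported hold no block. Without replicate 4, the models differed for 5 family genes. The difference in IL6R between lines was the sole call there, and its count was 0 with DESeq2 size factors, no filter, the fold limit, only the libraries compared or no replicate 4, and 0 to 1 when 1 library was left out. Calls among all genes moved more. With GC and length trends removed they went from 5098, 5272 and 5280 in OIS with the 3 shRNAs to 7908, 8243 and 8188, and from 3101 between models to 5538 (4711 with the block). With only the libraries compared they went to 2911 in OIS with the control shRNA and from 5915 to 3734 after bleomycin with COPB2 shRNA 2. For COPB2 shRNA 2 in OIS they went from 32 to 168 with the trends removed, 76 with the block, 70 in DESeq2 and 0 with only the libraries compared. The cause was not tested.

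None of the values that changed sign was called in the analysis reported. SOCS3 in OIS with COPB2 shRNA 2 was 0.072 with DESeq2 size factors, 0.036 with no filter, 0.073 in DESeq2, 0.16 with GC and length trends removed and 0.011 with only the libraries compared. Without replicate 4, CEBPB after bleomycin was -0.090, the difference with COPB2 shRNA 1 after bleomycin -0.17 for IL6 and -0.15 for LIF, and the interaction for IL6 -0.00899. Ranges over fits that left out 1 library were as follows. For bleomycin with the control shRNA, CEBPB -0.012 to 0.26. For COPB2 shRNA 1 by bleomycin (interaction), IL11 -0.90 to 2.77, IL6 -1.82 to 4.28. For COPB2 shRNA 1 in bleomycin, IL11 -0.87 to 2.80, IL6 -2.08 to 4.02, LIF -0.51 to 0.85. For COPB2 shRNA 2 by bleomycin (interaction), IL11 -0.45 to 2.02, IL6 -0.76 to 3.33. For COPB2 shRNA 2 in bleomycin, IL11 -0.45 to 2.02, IL6 -0.79 to 3.29, LIF -0.11 to 0.63. For COPB2 shRNA 1 in OIS, IL6 -0.60 to 0.14. For COPB2 shRNA 2 in OIS, IL6 -0.42 to 0.36. For OIS with COPB2 shRNA 1, IL6ST -2.15 to 1.14, SOCS3 -0.32 to 0.052. For OIS with COPB2 shRNA 2, IL6ST -1.70 to 1.47, SOCS3 -0.15 to 0.20. For OIS with the control shRNA, IL6ST -1.39 to 0.38, SOCS3 -0.043 to 0.36. For bleomycin with COPB2 shRNA 1, IL6ST -0.44 to 0.099. The lowest count of any of the 10 genes in any library was 23.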
